A study of Mus musculus with 6 samples.

Results

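Desmosomes are spot-like junctions that rivet neighbouring epithelial cells together and anchor their keratin filaments. Desmosomal cadherins (desmogleins and desmocollins) span the membrane, the armadillo proteins plakoglobin and plakophilin bind their tails, and desmoplakin links this plaque to keratin. Dsg2, Dsc2 and Pkp2 are the forms known from simple epithelia and heart muscle, whereas Pkp1 and several other cadherins are known from stratified epithelia such as epidermis.

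The genes examined were Dsp, Dsg2, Dsc2, Pkp1, Pkp2, Pkp3 and Jup, chosen by name as parts of the desmosome. All probe sets annotated to any of these 7 genes alone were taken, 19 of the 45037 that were not controls. A probe set is a group of short array probes for one transcript, and no member shared a probe set with another gene in the annotation. Dsg2 had 6 probe sets, Pkp2 had 4, Dsp had 3, Dsc2 and Pkp3 had 2 each, and Pkp1 and Jup had 1 each. Probe sets of one gene measure the same transcripts and are not replicates.

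The 6 arrays held RNA from genital tubercles of mouse embryos at 12.5 days post coitum. Embryos of both groups, on a mixed background, carried Shhtm1(EGFP/cre)Cjt, in which the Shh locus makes a green fluorescent Cre recombinase, and Gt(ROSA)26Sortm3(CAG-EYFP)Hze, a yellow fluorescent reporter that Cre switches on. Trypsin-dissociated cells were sorted into reporter-positive cells, labelled as urethral epithelium, and reporter-negative cells, labelled as genital tubercle. The reporter marks cells with a history of Shh expression, and the negative fraction holds every other cell of the tubercle. Each group had 3 arrays. Every array came from a pool of male and female littermates, whose size in both groups was 3 for replicate 1, 5 for replicate 2 and 2 for replicate 3. The comparison asked which desmosome transcripts differ between the Shh-lineage epithelium and the remaining tubercle.

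Arrays differed in overall signal, and positive replicate 3 stood apart. Its median deposited signal over probe sets with 1 gene was 0.34, against 2.15 to 8.84 in the other 5 arrays, while hybridization controls averaged 1443 to 1884 on all 6. Of its named probe sets 24.6% exceeded the brightest unspiked bacterial control, against 44.0% to 59.3% elsewhere. Its Spearman correlations with the other arrays, across probe sets, were 0.325 to 0.345. The gene-level differences of the desmosome genes are therefore given with and without it. Normalized levels are log2(signal + 16) after quantile normalization, which gives all arrays one distribution, and differences are positive minus negative on that scale. With 16 added, a level of 4 is the floor, and changes of dim probe sets are compressed.

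The labelled fractions were checked against Shh, whose summed normalized signal was 344 to 955 in positive and 0.73 to 8.83 in negative arrays, and against 7 epithelial markers. All 7 lay above their negative values in each positive array, and their summed normalized signal was 751 to 1768 in positive and 53.2 to 61.8 in negative arrays. Among the positive arrays replicate 1 had the lowest epithelial sum, 751, and the highest sum of 12 mesenchymal markers, 2552, close to the 2598 to 3231 of negative arrays. Positive replicates 2 and 3 had mesenchymal sums of 182 and 402. Markers of surface ectoderm and basal epidermis summed to 281 to 443 in positive and 96.1 to 144 in negative arrays, and 5 of these 6 markers exceeded the array background described below on every negative array. Of these 6 markers Krt5 averaged 5.92 in positive and 5.81 in negative arrays, Krt14 4.87 and 5.43, and Krt10 4.77 and 5.35. Krt15 averaged 7.13 and 4.82, Trp63 6.99 and 4.93, and Krt17 4.57 and 4.17, each with all positive arrays above all negative ones. Summed signals of 8 endothelial markers overlapped between the groups, at 23.6 to 56.2 and 19.7 to 29.7, and those of 8 leukocyte markers were 64 to 148 and 12.5 to 36.1. Red cell markers, 6 of 7 of them on the array, summed to 627 to 1501 in positive and 3128 to 6017 in negative arrays. In RNA of sorted pools, a change in the share of a cell type and a change in RNA per cell cannot be told apart. The part of these other cell types in the differences below was not tested.

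Transcripts of the desmoplakin, desmoglein 2 and plakophilin 2 genes had the largest differences among the 7 after quantile normalization, each with all 3 positive arrays above all 3 negative arrays. Pkp1 also separated the groups, at a low level. Pkp3 and Jup were dim and overlapped. The brightest Dsc2 probe set lay in the opposite direction, with overlapping groups, and without normalization its difference of -1.10 was the largest of the 7 in size. With median centring it was -0.91, beside 1.16 for Pkp2, 0.84 for Dsp and 0.60 for Dsg2. In the gene-level fit over all 6 arrays none of the 7 genes passed an adjusted p of 0.05 (limma, two-sided, Benjamini-Hochberg over 14071 genes), where 0.0142% of genes were called higher and 0% lower. The desmosome genes at an unadjusted p under 0.05 were 4 of 7, all in the direction of the positive cells, where 2.3% of all genes were, and 0 of 7 lay in the other direction, where 2.88% were. Groups that did not overlap, with positive arrays higher, were seen for 4 of 7 genes and for 6.29% of all genes. With positive arrays lower, they were seen for 0 of 7 and for 6.99%. Pkp1 is among the 4 of 7 in both counts, and it passed the filter on low signal only through its positive arrays. Without positive replicate 3, 1 of 7 genes was called higher, Dsp, where 0.552% of 13960 genes were, and none lower, where 0.0501% were. At an unadjusted p under 0.05, 6 of 7 were then higher, beside 5.41% of genes.

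**Figure D1:**
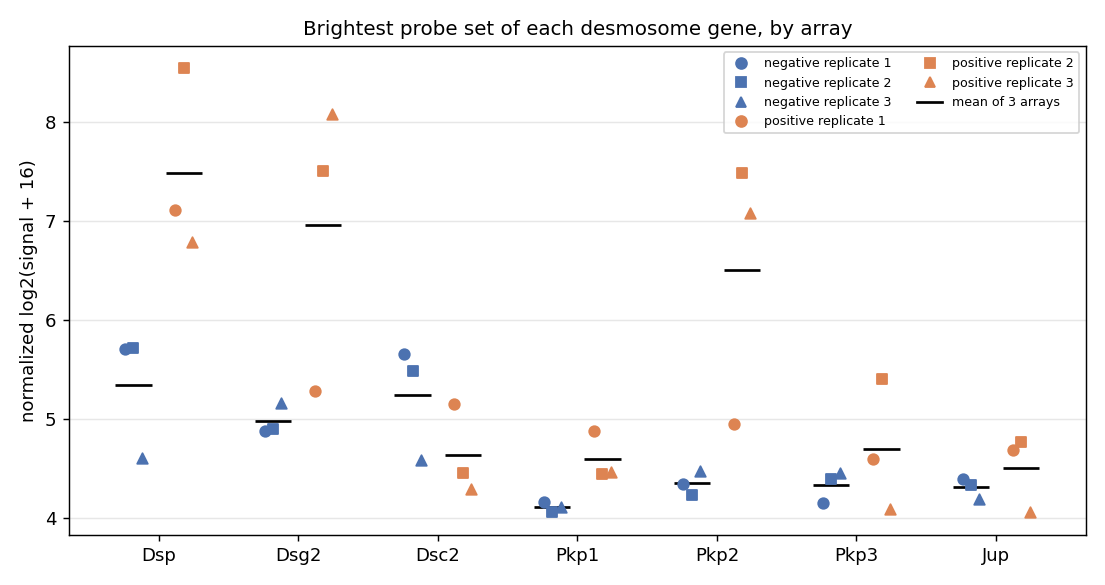
Normalized log2(signal + 16) of the brightest probe set of each desmosome gene (vertical axis) by array, with negative arrays in blue, positive arrays in orange, marker shapes for replicates and bars at the mean of 3 arrays. Dsp, Dsg2, Pkp1 and Pkp2 have every positive array above every negative one, and positive replicate 1 lies nearest to the negative arrays for Dsg2 and Pkp2.

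Dsp encodes desmoplakin, the plaque protein that ties the junction to keratin filaments. Its brightest probe set, 1435493_at, read 7.11, 8.55 and 6.79 in positive replicates 1, 2 and 3 and 5.70, 5.72 and 4.61 in the negative ones. The lowest positive array stood more than 1 log2 unit above the highest negative array. The means were 7.48 ± 0.94 and 5.34 ± 0.64 (SD, n = 3 each), a difference of 2.14 (SE 0.55, adjusted p = 0.628, limma). Without positive replicate 3 the difference was 2.58 (SE 0.46, adjusted p = 0.0200, limma), and Dsp passed. The second Dsp probe set, 1435494_s_at, read 7.06, 7.86 and 7.61 in positive and 5.45, 4.59 and 4.22 in negative arrays. It had the largest difference of the 19 probe sets, 2.76 (SE 0.47, adjusted p = 0.225 over 45037 probe sets, limma). In the probe-set fit without positive replicate 3 it was the only 1 of 19 that passed, at 2.85 (SE 0.41, adjusted p = 0.0377, limma), where 0.0533% of all probe sets were called higher. The ending _s_at marks a probe set whose probes match more than 1 transcript. The third Dsp probe set, 1427610_at, read at most 2.99 in deposited units and never exceeded the brightest unspiked control.

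As deposited, before any normalization, 1435493_at read 106, 247 and 2.29 in positive and 61.5, 84.2 and 3.54 in negative replicates 1, 2 and 3. On that scale positive replicate 3 was below all negative arrays. Position within an array needs no scaling between arrays. Quantile normalization sets levels from such ranks, so position largely restates the normalized result and is not separate support for it. By position 1435493_at stood at percentiles 96.0, 99.0 and 94.7 of named probe sets in positive arrays. In negative arrays it stood at 86.2, 86.4 and 63.9, without overlap. Without normalization the Dsp difference was 0.65 and did not pass (adjusted p = 0.677, limma), in a setting where the median over all genes fell to -0.48. In deposited units 1435493_at exceeded the unspiked control on all 3 negative arrays as well as on all 3 positive ones.

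The promoter of Dsp is shown because this gene had the probe set with the largest difference, and that of Jup because its difference was small. Windows from the RefSeq promoter table were used for these 2 of the 7 members only. No window is given for the other members, and whether that table holds one for them is not reported. The windows hold the 250 bases before the annotated start in RefSeq's GRCm38.p6 table, 5′ to 3′ on the gene's strand, and capitals mark CCGCCC on either strand, the core of the GC box.
Dsp, chr13:38151044-38151293, plus strand: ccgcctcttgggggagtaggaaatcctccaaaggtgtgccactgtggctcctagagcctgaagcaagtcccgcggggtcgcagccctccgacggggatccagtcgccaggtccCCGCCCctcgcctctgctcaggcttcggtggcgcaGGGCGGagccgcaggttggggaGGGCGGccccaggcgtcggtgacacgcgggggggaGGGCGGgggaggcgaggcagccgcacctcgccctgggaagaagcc
Jup, chr11:100397791-100398040, minus strand: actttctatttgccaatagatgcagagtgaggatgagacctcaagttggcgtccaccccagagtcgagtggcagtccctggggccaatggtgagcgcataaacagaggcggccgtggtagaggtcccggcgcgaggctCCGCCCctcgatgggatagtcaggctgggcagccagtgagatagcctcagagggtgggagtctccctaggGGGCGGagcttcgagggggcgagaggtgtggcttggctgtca
The Dsp window is 72.4% G or C and held 4 matches to CCGCCC, and the Jup window is 62% and held 2. Of 32851 windows of this length 32.7% held at least 1 match. Neither window held CAGGTG, the E-box that Snail and Zeb repressors are known to bind (17.2% of windows), AACCGGTT, the site of grainyhead factors (0.116%), or TATAAA (12.4%), each searched on both strands. These letters describe the 250-base windows alone.

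Dsg2 encodes desmoglein 2, the desmosomal cadherin of simple epithelia. The probe set 1449740_s_at read 5.29, 7.51 and 8.09 in positive and 4.87, 4.90 and 5.16 in negative arrays. Positive replicate 1 was close to the negative values, and replicates 2 and 3 were more than 2 log2 units above them after normalization. The means were 6.96 ± 1.48 and 4.98 ± 0.16 (SD, n = 3 each), a difference of 1.98 (SE 0.65, adjusted p = 0.725, limma). Without positive replicate 3 it was 1.49 (SE 0.49, adjusted p = 0.303), and without positive replicate 1 it was 2.87 (SE 0.44, adjusted p = 0.0590). Among the 3 positive arrays replicate 1 has the highest mesenchymal and lowest epithelial marker sum, and the part of this in the Dsg2 level was not tested.

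The 6 Dsg2 probe sets all had positive differences, from 0.11 to 1.98. In 4 of them all positive arrays exceeded all negative arrays after normalization. Of these, 1439476_at read 5.50, 6.61 and 7.23 in positive and 5.29, 5.12 and 4.26 in negative arrays. Its difference was 1.56 (SE 0.51, adjusted p = 0.797 over all probe sets, limma). As deposited its groups overlapped, at 28.7, 52.8 and 2.74 in positive and 38.7, 42.0 and 1.48 in negative arrays. That difference was 0.018 without normalization and 0.21 with median centring. The differences of 1449741_at and 1425619_s_at were 0.69 (SE 0.33) and 0.60 (SE 0.26). The 2 probe sets whose groups overlapped had the lowest mean normalized levels. In deposited units they reached at most 12.1, while 1425619_s_at, whose groups did not overlap, reached at most 7.72. As deposited 1449740_s_at read 23.1, 106.5 and 3.94 in positive and 22.3, 30.45 and 7.09 in negative arrays. On that scale positive replicate 3 was below all negative arrays. Within arrays 1449740_s_at stood at percentiles 80.3, 97.2 and 98.4 in positive and 71.8, 72.4 and 78.0 in negative arrays. Quantile normalization rests on such ranks, so these are not separate from its normalized levels.

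Dsc2 encodes desmocollin 2, the usual partner of desmoglein 2 in these junctions. Its brighter probe set, 1426911_at, read 5.15, 4.46 and 4.29 in positive and 5.65, 5.49 and 4.59 in negative arrays. Positive replicate 1 lay above negative replicate 3, so the groups overlapped. The means were 4.63 ± 0.46 and 5.24 ± 0.57 (SD, n = 3 each), a difference of -0.61 (SE 0.39, adjusted p = 0.725, limma), and -0.48 (SE 0.36, adjusted p = 0.745) without positive replicate 3. The sign was negative in all 18 alternative fits, from -1.29 to -0.10, and none of them passed. As deposited it read 19.8, 4.53 and 0.25 in positive and 58.6, 65.6 and 3.42 in negative arrays. The other Dsc2 probe set, 1421156_a_at, had a difference of 0.41 (SE 0.27, adjusted p = 0.797 over all probe sets), of the opposite sign. It did not exceed the unspiked control on any negative array and did so on 2 of 3 positive arrays, and its groups overlapped. The difference was 0.16 (SE 0.18) without positive replicate 3, its highest array, and without normalization it was 0.056. No direction is given for the gene. Across the 6 arrays the brightest Dsg2 and Dsc2 probe sets correlated at -0.81, as a description of 6 values that share the group labels.

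**Figure D2:**
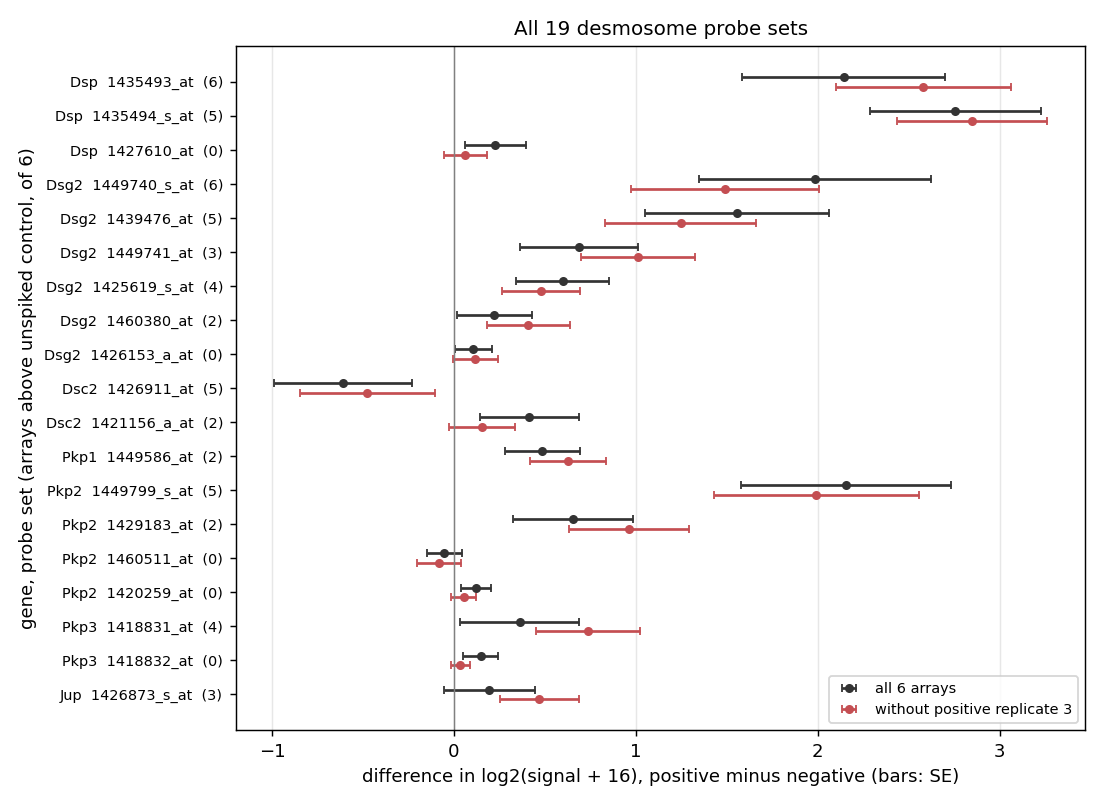
Difference in log2(signal + 16), positive minus negative (horizontal axis, bars are SE), for all 19 desmosome probe sets, with all 6 arrays in black and without positive replicate 3 in red. The number after each name counts the arrays, of 6, above the brightest unspiked control. The 2 brighter Dsp sets, 4 sets of Dsg2 and the brightest set of Pkp2 lie to the right of 0 by 0.60 to 2.76, and 1426911_at of Dsc2 lies to its left.

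Pkp2 encodes plakophilin 2, the plakophilin of simple epithelia and heart. The probe set 1449799_s_at read 4.95, 7.49 and 7.08 in positive and 4.34, 4.23 and 4.48 in negative arrays. As for Dsg2, positive replicate 1 was, after normalization, the lowest of the positive arrays and the nearest to the negative ones. The means were 6.50 ± 1.37 and 4.35 ± 0.12 (SD, n = 3 each), a difference of 2.15 (SE 0.60, adjusted p = 0.725, limma). The difference was 1.99 (SE 0.52, adjusted p = 0.144) without positive replicate 3. Without positive replicate 1 Pkp2 passed, at 2.97 (SE 0.41, adjusted p = 0.0423, limma), in a fit that keeps positive replicate 3. As deposited 1449799_s_at read 15.1, 104 and 2.57 in positive and 7.21, 5.34 and 2.89 in negative arrays. On that scale positive replicate 3 was below all negative arrays. By percentile within arrays, the kind of rank that quantile normalization itself uses, the groups did not overlap. Pkp2 and Dsg2 correlated at 0.97 over the 6 arrays, the highest value among the 21 pairs of members, which ranged down to -0.81. These pairs share the same 6 arrays and the group contrast.

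The other Pkp2 probe sets were dim. Of these, 1429183_at was above the unspiked control on 2 of 3 positive arrays and on no negative array. Its levels did not overlap between groups after quantile normalization. With negative levels raised to the lowest level above background, the positive mean was 1.40-fold higher on the normalized scale. Positive replicate 3 was itself below the control, so this is not a lower bound. The difference of 1429183_at was 0.66 (SE 0.33, adjusted p = 0.797 over all probe sets, limma). The remaining 2 never exceeded that control and differed by 0.12 and -0.05.

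Pkp1 encodes plakophilin 1, which is most abundant in stratified epithelium. Its probe set, 1449586_at, read 4.88, 4.45 and 4.46 in positive and 4.16, 4.06 and 4.11 in negative arrays. The groups did not overlap, but the levels were close to the floor of 4. In deposited units it exceeded the unspiked control on positive replicates 1 and 2 and on no negative array. With negative levels raised to the lowest level above background, the positive mean was 1.22-fold higher on the normalized scale. Positive replicate 3 was itself below the control, so this is not a lower bound. The means were 4.59 ± 0.25 and 4.11 ± 0.05 (SD, n = 3 each), a difference of 0.49 (SE 0.19, adjusted p = 0.725, limma), and 0.63 (SE 0.19, adjusted p = 0.242) without positive replicate 3. Here positive replicate 1 was the highest of the 6 arrays, unlike for Dsg2 and Pkp2.

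Pkp3 encodes plakophilin 3, the plakophilin with the widest epithelial distribution. The probe set 1418831_at read 4.59, 5.40 and 4.09 in positive and 4.15, 4.39 and 4.45 in negative arrays. Positive replicate 3 was the lowest of the 6 and the groups overlapped. The difference was 0.36 (SE 0.32, adjusted p = 0.734, limma), and 0.74 (SE 0.27, adjusted p = 0.375) without positive replicate 3, where the remaining groups no longer overlapped. Without positive replicate 2 it was 0.011 (SE 0.24), so the size of the Pkp3 difference rests on that array. Its other probe set reached at most 0.81 in deposited units.

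Jup encodes plakoglobin, which also binds classical cadherins in adherens junctions and is therefore not limited to desmosomes. The single probe set, 1426873_s_at, read 4.69, 4.76 and 4.05 in positive and 4.40, 4.33 and 4.19 in negative arrays, with overlap. Jup differed by 0.20 (SE 0.23, adjusted p = 0.780, limma), and 0.47 (SE 0.20, adjusted p = 0.480) without positive replicate 3, the lowest of the 6 arrays. Without normalization the difference was -0.01, so no direction is given for Jup. It exceeded the unspiked control on 3 of 6 arrays.

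Across the 19 probe sets 17 had a positive and 2 a negative difference, and 14 had a mean level past the low-signal filter used for genes. Signal above the unspiked control was seen on at least 2 arrays for 14 probe sets and on no array for 5. The groups did not overlap, with positive arrays higher, in 9 of 19, where 5.8% of all probe sets showed this. Without normalization between arrays the gene-level differences were 0.41 for Dsg2, 0.96 for Pkp2, 0.30 for Pkp1, 0.16 for Pkp3 and -1.10 for Dsc2, none of which passed. None of the 19 had positive arrays below all negative ones, and none passed an adjusted p of 0.05 over the 6 arrays, where 0.0111% of all probe sets were called higher.

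**Figure D3:**
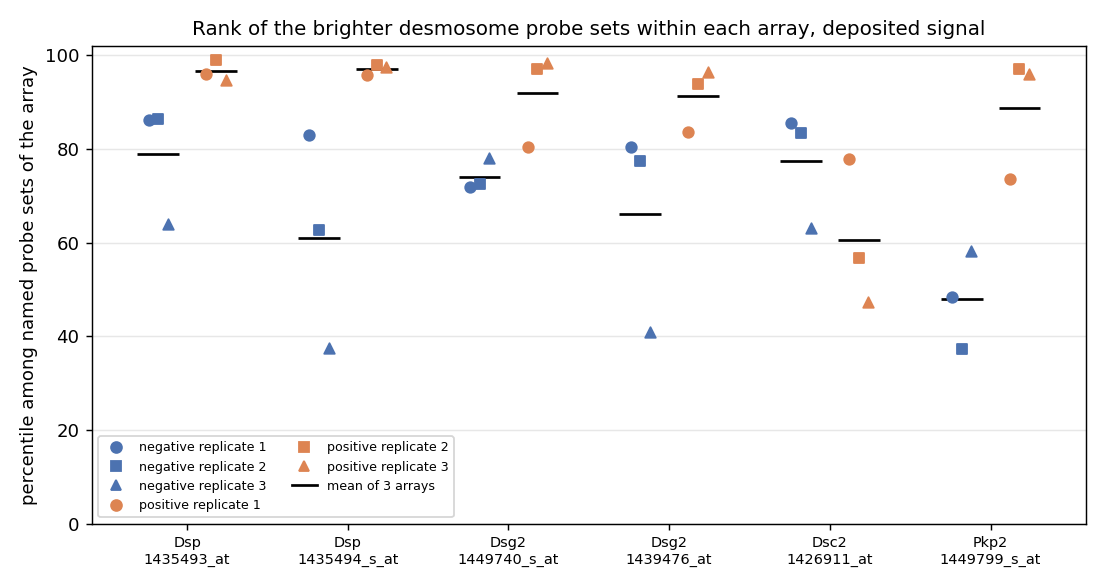
Percentile of a probe set's deposited signal among named probe sets of the same array (vertical axis), for the 6 desmosome probe sets above the unspiked control on at least 5 arrays; colours and shapes stand for group and replicate, and bars for the mean of 3 arrays. The positive arrays stand above the negative ones for both Dsp, both Dsg2 and the Pkp2 probe set, and Dsc2 overlaps. Quantile normalization uses such ranks, so this is not separate from the normalized levels.

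Other desmosome and cell envelope genes also lay on both sides of 0. The list held 11 genes, 8 of them represented by a probe set for that gene alone, and 6 passed the filter on low signal. Of these 6, 5 had positive differences with a median of 0.47 for the 6, beside a median of -0.03 over all 14071 genes, of which 47.2% were positive. None was called in the 6 arrays. Perp, a membrane protein needed for desmosome assembly in stratified epithelium, read 6.79, 7.34 and 6.0 in positive and 5.59, 4.69 and 5.12 in negative arrays, without overlap. Its difference of 1.58 (SE 0.46, adjusted p = 0.725, limma) became 2.03 (SE 0.36, adjusted p = 0.0171) without positive replicate 3, and Perp passed there.

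Dsc3, a desmocollin of basal epidermal cells, had the largest negative difference of this list. It read 5.34, 4.30 and 4.05 in positive and 6.87, 6.02 and 5.60 in negative arrays, with every positive array below every negative one. This probe set exceeded the unspiked control on 4 of 6 arrays, and positive replicates 2 and 3 were below that control. Dsc3 differed by -1.60 (SE 0.47, adjusted p = 0.725, limma), and -1.44 (SE 0.42, adjusted p = 0.219) without positive replicate 3. Its sign was negative in all 18 alternatives and 2 of them passed, whereas a second, dimmer Dsc3 probe set that never exceeded the unspiked control differed by 0.24. In the RefSeq gene order Dsc3, Dsc2 and Dsc1 lie side by side at one end of the desmosomal cadherin cluster on chromosome 18, and Dsg2 lies at its other end.

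The envelope plaque genes Evpl and Ppl differed by 0.57 (SE 0.23) and 0.38 (SE 0.22), with no overlap between groups and no call over the 6 arrays or without positive replicate 3. Both were dim: Evpl exceeded the unspiked control on 2 of 6 arrays and Ppl on 4, and positive replicate 3 was below it for both. Of 18 alternatives 2 called Evpl, and none called Ppl. Pkp4, an armadillo protein related to the plakophilins that many cell types express, differed by 0.98 (SE 0.59) and overlapped, and its sign turned with median centring, at -0.65, and without normalization, at -0.84. Dsc1, a desmocollin of differentiated epidermis, had 2 dim probe sets, above the unspiked control on 0 and 1 of the 6 arrays, which differed by 0.30 and -0.03, and no direction is given for it. Dsg1a and Dsg1b had signals too low to be tested.

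Genes of neighbouring structures are given for comparison. None of the differences between these lists and the desmosome genes was tested. The 7 desmosome genes had a median difference of 0.49 with 6 positive, against 2.52 with 7 of 8 positive for keratins. Krt8 was the only listed junction or keratin gene called in the 6 arrays, at 4.46 (SE 0.45, adjusted p = 0.0144, limma). Without positive replicate 3 Krt8, Krt18, Krt19, Krt7 and Krt15 passed, 5 of 8 keratins. Krt14, the basal partner of Krt5, had the largest negative difference of the keratins, -0.57 (SE 0.42).

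Tight junction genes had a median of 1.14 with 11 of 11 tested genes positive. Without positive replicate 3 the claudins Cldn3, Cldn4, Cldn6 and Cldn7 and the adhesion molecule F11r passed, 5 of 11. Cldn7 had the largest difference in the 6 arrays, 2.57 (SE 0.55), and Marveld3 the smallest, 0.27 (SE 0.25). Adherens junction genes had a median of 0.10 with 8 of 13 positive. Cdh1, the epithelial cadherin, differed by 2.00 (SE 0.57) over the 6 arrays and passed at 2.85 (SE 0.31) without positive replicate 3, whereas Cdh2, the neural cadherin of mesenchyme, differed by -1.12 (SE 0.50). Hemidesmosome genes, which anchor keratin to the basement membrane, had a median of 0.98 with 6 of 6 positive. In the 5 arrays lacking positive replicate 3 Dst passed at 1.55 (SE 0.28), Plec at 1.44 (SE 0.30) and Cd151 at 2.36 (SE 0.45), the last with another probe set, which was then the brighter. Over the 6 arrays Cd151 was the largest at 2.41 (SE 0.45), without passing, and Col17a1 was the smallest at 0.20 (SE 0.23), with a sign that turned in 5 of the alternatives. Of 9 tested epithelial transcription factors 7 were positive, with a median of 0.39. Over the 6 arrays Klf5 differed by 2.41 (SE 0.51) and Grhl3 by 1.15 (SE 0.49), and neither passed. Both passed without positive replicate 3, at 2.00 (SE 0.31) and 1.92 (SE 0.26). Klf4 had the largest negative difference, -0.60 (SE 0.71), which was 0.12 without that array.

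**Figure D4:**
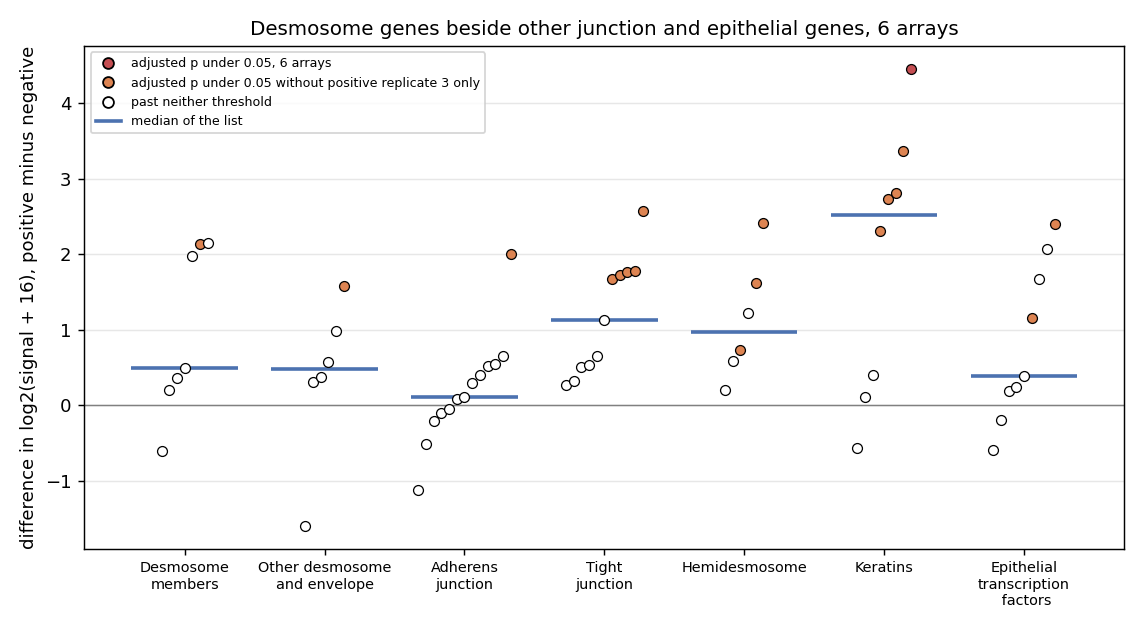
Difference in log2(signal + 16), positive minus negative over the 6 arrays (vertical axis), for each tested gene of the desmosome members and 6 other lists. Red points passed an adjusted p of 0.05 over the 6 arrays, and orange points passed it only without positive replicate 3. White points passed neither, and lines are list medians. Dsp, Dsg2 and Pkp2 stand apart at 1.98 to 2.15 from the other 4 desmosome genes, which lie between -0.61 and 0.49.

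The genes whose pattern over the 6 arrays was most like the mean of the 7 desmosome genes were Mpzl2, Zfp982, Gnai1, Tmprss2 and Prag1. Pearson correlations with that mean profile were 0.999 for Mpzl2 and 0.990 to 0.991 for the others, picked as the highest of all tested genes over only 6 arrays. Mpzl2, an epithelial adhesion protein, read 6.06, 7.76 and 6.67 in positive and 4.96, 5.00 and 4.40 in negative arrays. Its difference was 2.04 (SE 0.48, adjusted p = 0.510, limma), and 2.24 (SE 0.43, adjusted p = 0.0306) without positive replicate 3. Tmprss2, a membrane serine protease of epithelia, differed by 1.37 (SE 0.35) over the 6 arrays and Prag1 by 1.93 (SE 0.52), and neither passed. Without that array both passed, at 1.55 (SE 0.31) and 2.28 (SE 0.46). Zfp982 differed by 1.0 (SE 0.32) and Gnai1 by 0.96 (SE 0.39), neither passed in these fits, and the sign of Gnai1 turned with median centring and without normalization.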

How the data were processed

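The deposited table holds 1 intensity per probe set and array, on a linear scale by its values. How the authors summarized and scaled it is not given in the sources used here. For 1 of the 6 samples the submitters' processing notes name GCOS, the scanner software, with no version. Biotin-labelled total RNA had been hybridized to Affymetrix arrays, per the labels' protocols.

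Setting aside 64 control probe sets left 45037, of which 34945 had 1 gene, 932 several and 9160 none here. Symbols of 34741 were updated through RefSeq gene identifiers (GRCm38.p6). Signals were quantile normalized and taken as log2(signal + 16). For each of 18193 genes the brightest probe set by its mean over the arrays was kept, and a gene was tested if its mean exceeded percentile 30 of the named probe sets, with lmFit and eBayes (intensity trend, limma 3.58.1, R 4.3.3). All 7 members passed that filter, Pkp1 only through its positive arrays, since its negative mean of 4.11 lay below the level needed. A second fit took all 45037 probe sets. Benjamini-Hochberg adjustment ran over everything tested, with a threshold of 0.05. Without positive replicate 3, normalization and choice of probe set were repeated.

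Background on each array was the highest signal among 27 control probe sets for unspiked bacterial RNA, and hybridization controls were the mean of 18. A probe set at or below background on all arrays of a group has a fold against the higher of its own level and the lowest level above background on each array. Levels of the other group were not adjusted. The fold is therefore a lower bound only where all arrays of that other group exceed background. Precision is limited by there being 3 arrays a group. Since each array is 1 pool, p-values reflect only how much these pools vary.

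Named genes were the 7 members, list genes that passed in either fit or had the largest rise or fall, and the 5 genes of most similar pattern. Evpl, Ppl, Pkp4, Dsc1, Krt5, Krt10, Krt17, Trp63, Dsg1a and Dsg1b were named after their values were seen. Members, lists and tests were chosen with earlier results of these data known. The fits were tested on simulated data.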

Additional observations from a re-analysis of the deposited data

How the results depend on the processing

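Of 18 alternative gene-level fits, 14 called 0 of the 7 desmosome genes, as in the main comparison. Array weights called 4 (Dsp, Dsg2, Pkp1, Pkp2), and a replicate block for pool size with positive replicate 3 left out called 4 (Dsp, Dsg2, Pkp2, Pkp3), where negative replicate 3 is alone in its block. Leaving out each array in turn gave 0 to 1 genes and 0 to 1 probe sets, and array weights and that block gave 3 of 19 probe sets each. The replicate block over all 6 arrays called 0 desmosome genes and 2 genes in all, as without it. Deviations of equal-numbered arrays correlated at 0.13, 0.03 and 0.11, and those of unequal-numbered arrays at -0.13 to 0.06. These few values do not settle whether the arrays are paired. Pools of equal size may share litters, and the numbers that end the sample titles are consecutive for the arrays of each such pair. The labels state neither what these numbers mean nor that litters were shared, so the main fit did not pair the arrays. No other call on the 7 genes changed.

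Over all genes, 2 were called in the main comparison, 0 without normalization, with a pseudocount of 64 or with the mean of probe sets, 7 with a pseudocount of 1, 6 with a filter at the 50th percentile, 33 with median centring, 480 with array weights, 562 with the block lacking positive replicate 3, and 0 to 84 when leaving out 1 array (84 without positive replicate 3, 22 without positive replicate 1, 4 without positive replicate 2 and 0 without any negative one). Leaving out both replicates numbered 3, chosen after seeing the data, gave 27 genes and 0 members. The main calls were 2 higher and 0 lower, against 6 and 1 with a pseudocount of 1, 33 and 0 with median centring, 255 and 225 with array weights, and 283 and 279 with the block lacking positive replicate 3. The median over all genes was -0.48 without normalization, -0.28 with median centring and -0.16 with a pseudocount of 1.

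Signs turned without normalization for Jup (-0.0051, gene and probe set), Dsc1 (-0.20), Pkp4 (-0.84), Col17a1 (-0.23) and Gnai1 (-0.41). With median centring they turned for Dsc1 (-0.011), Pkp4 (-0.65), Col17a1 (-0.037) and Gnai1 (-0.22). Col17a1 was -0.084 with array weights, -0.082 with the block lacking positive replicate 3, and -0.091 without both replicates 3. Dsc1 was -0.11 in that block, and -0.13 without both replicates 3. Leaving out 1 array gave -0.14 to 0.44 for Dsc1 and -1.25 to 0.12 for Klf4, each turning without positive replicate 3, where for Dsc1 the brighter of its probe sets also changed. The causes were not tested. Dsp ranged from 0.65 to 2.78, Dsg2 from 0.41 to 2.87 and Pkp2 from 0.72 to 3.69, with no change of sign. Signal over background limits the dim members, with 5 of 19 probe sets above the unspiked control on no array.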
